A study of Mus musculus with 6 samples.

Results

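The miR-130 and miR-301 family was followed in small RNA libraries of mouse bone-marrow-derived macrophages. Its 6 members were taken by name from the mature miRNA references: mmu-miR-130a-3p, mmu-miR-130b-3p, mmu-miR-130b-5p, mmu-miR-301a-3p, mmu-miR-301a-5p and mmu-miR-301b-3p, written below without the species prefix. All 6 had reads in at least 1 library, out of 911 mature references in the series. Marrow came from male mice aged 6 to 12 weeks that were either ApoE-knockout (EKO, 3 libraries) or wild type (WT, 3 libraries). Cells of both genotypes grew in medium with 10% serum and received macrophage colony-stimulating factor (M-CSF) at 25 ng/mL every 2 days over 6 days, so no untreated or undifferentiated cells were included. The series describes the replicates as biological, and the labels give neither the strain nor whether marrow of several mice was pooled.

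A miRNA hairpin yields 2 mature strands, the 5p arm and the 3p arm, and the strand retained by Argonaute guides it to transcripts that pair with the seed, bases 2 to 8. The 3p arms of this family share 1 seed and are the strands usually studied as guides. As background, miR-130a-3p and miR-130b-3p are known to target the transcript of the nuclear receptor PPARγ. The 3p arms of the linked miR-130b and miR-301b have been described as regulators of the LDL receptor and of the cholesterol exporter ABCA1, and miR-301a-3p as a promoter of NF-kB activity through the repressor NKRF. Apolipoprotein E, the protein missing in EKO mice, accepts cholesterol exported by ABCA1.

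The mature sequences (RefSeq, GRCm38.p6) are printed first because the family is defined by them. Capitals mark the seed. Of the 6 members 5 matched an entry in that table, and miR-301b-3p did not.
miR-130a-3p: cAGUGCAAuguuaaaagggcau
miR-130b-3p: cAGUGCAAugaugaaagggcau
miR-301a-3p: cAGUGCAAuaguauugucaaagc
miR-130b-5p: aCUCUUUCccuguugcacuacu
miR-301a-5p: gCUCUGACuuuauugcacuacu
miR-301b-5p: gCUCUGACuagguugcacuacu
The 3p arms have the seed AGUGCAA, and the 5p arms do not. Only 7 of 1679 mature names in the table (0.417%) carry AGUGCAA at these positions, and of those 7 the libraries held reads of miR-130a-3p, miR-130b-3p and miR-301a-3p. miR-130a-3p and miR-130b-3p are identical at 20 of 22 positions counted from the 5′ end, whereas miR-130b-3p and miR-301a-3p match at 11 of 22, the first 9 among them. The 5p arms of miR-301a and miR-301b share a seed of their own, CUCUGAC, found in 2 of the 1679 names, and are identical at 19 of 22 positions. miR-301b-5p was not among the listed members and is shown as the opposite arm of miR-301b.

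The 2 hairpins whose arms could be compared in every library are printed below with both mature arms in capitals, so that the position of each arm can be seen.
Mir130b: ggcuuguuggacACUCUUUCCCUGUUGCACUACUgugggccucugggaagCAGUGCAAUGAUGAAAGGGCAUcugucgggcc
Mir301: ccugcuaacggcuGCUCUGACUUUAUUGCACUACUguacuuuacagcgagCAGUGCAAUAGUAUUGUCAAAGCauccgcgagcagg
Mir130b lies on the minus strand at chr16:17124061-17124142 and Mir301b on the same strand at chr16:17124400-17124496, 257 bases apart (GRCm38.p6). Both fall within the protein-coding gene 2610318N02Rik in GENCODE M21 and overlap none of its exons. Mir301, the hairpin of miR-301a, lies on the plus strand at chr11:87113004-87113089, within Ska2, a gene of the spindle and kinetochore complex, and again outside its exons. Mir130a, on the minus strand at chr2:84741115-84741178, overlaps no other annotated gene.

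The libraries held 34651511 to 39532544 reads on mature miRNAs in EKO and 38440290 to 41331604 in WT. Fewer mature references were detected in EKO (543 to 591) than in WT (664 to 698). Apoe mRNA was not measured, and the genotype labels were therefore not checked. Levels are CPM, reads scaled to a library total of 1000000, further scaled by TMM, a factor that adjusts each library for its composition. The 7 myeloid and macrophage miRNAs were all detected, at a summed 152700 to 167315 CPM in EKO and 213909 to 234719 in WT. Most of this was miR-21a-5p. By log2 fold change, 5 of the 7 were lower in EKO and 2 higher. The higher ones were miR-223-5p (means 2789 and 2024 CPM in EKO and WT) and miR-146a-5p (2205 and 2099). Of the lists for other cell types, the 6 stromal miRNAs summed to 222 to 314 CPM in EKO and 467 to 560 in WT. Most of this was miR-143-3p (means 90.4 and 186 CPM in EKO and WT) and miR-140-5p (175 and 320 CPM). By log2 fold change, 4 of the 5 tested were lower in EKO. The 1 higher was miR-214-3p, at a low level with overlap (1.24 and 0.103 CPM). miR-145a-5p was at 0 in every library but WT replicate 2. The 2 endothelial miRNAs summed to 65.7 to 72.2 CPM in EKO and 74.1 to 79.3 in WT, with miR-126a-5p at 0 in every library but WT replicate 1. The 5 stem-cell and megakaryocyte miRNAs summed to 29507 to 34463 CPM in EKO and 23812 to 27895 CPM in WT. Of these, miR-10a-5p was the 1 with a higher mean in EKO (18972 against 12605 CPM), and the other 4 had lower means. Of those 4, 3 were lower without overlap, as held for 18.8% of the 575 miRNAs tested below. Among these 3, miR-196a-5p (means 0.00878 and 2.10 CPM in EKO and WT) and miR-196b-5p (0.352 and 2.84 CPM) had low levels. In EKO and WT, respectively, the 2 detected of 3 erythroid miRNAs stood at 116 to 154 and 129 to 158, the 3 lymphoid miRNAs at 276 to 317 and 380 to 445, and the hepatocyte miRNA miR-122-5p at 99.8 to 164 and 45.0 to 58.3. The erythroid sum was nearly all miR-486a-5p, whose genotypes overlapped (log2 fold change -0.14). The other erythroid miRNA, miR-451a, went the opposite way at a low level, averaging 4.28 CPM over EKO libraries against 0.187 CPM over WT libraries. Its log2 fold change was 4.49 (interval -0.20 to 9.18, adjusted p = 0.26, edgeR). It was higher in EKO without overlap, as held for 12.5% of the 575 miRNAs. The lymphoid sum was nearly all miR-181b-5p (means 292 and 401 CPM in EKO and WT). miR-150-5p (3.63 and 5.17 CPM) and miR-181c-5p (1.09 and 0.0777 CPM) were low, with overlap, and miR-181c-5p had its higher mean in EKO. The part of these cell-type lists in the values below was not tested. A smaller number of cells of a type cannot be told apart from less of a miRNA per cell in such bulk libraries.

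The family was carried by 1 strand, miR-130b-5p, which does not hold the AGUGCAA seed. It made up 90.6% to 94.0% of the reads of the 6 members in each library. The 4 arms ending in 3p together took 0.00208% to 0.00329% of all reads. Levels below are likewise CPM scaled by TMM. Mature miRNAs are nearly equal in length, but ligation in small RNA kits favours some sequences, so the order of levels among miRNAs is a description of the libraries.

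miR-130b-5p stood at 1169, 965 and 1249 CPM in the 3 EKO libraries and at 964, 938 and 988 CPM in the 3 WT libraries. The 2 highest libraries were EKO replicates 1 and 3, and EKO replicate 2 fell among the WT values. It ranked 53rd of all references in EKO and 59th in WT.
Next in level came miR-301a-5p, at 65.2, 32.6 and 58.8 CPM in EKO and 56.2, 70.3 and 73.7 CPM in WT. EKO replicate 2 was the lowest of the 6 libraries, and the other 2 EKO libraries lay between the lowest and the middle WT library. Its lowest level was above the highest level of any 3p arm.

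Among the arms with the shared seed, miR-130b-3p was the most abundant in each library, at 18.9, 16.1 and 20.1 CPM in EKO and 14.5, 14.7 and 15.6 CPM in WT. On this scale all 3 EKO libraries lay above all 3 WT libraries, but in CPM without the TMM factor EKO replicate 2 (16.32) fell just below WT replicate 3 (16.33).
miR-301a-3p stood at 16.2, 11.9 and 7.40 CPM in EKO and 5.65, 8.92 and 5.32 CPM in WT. EKO replicates 1 and 2 were above every WT library, while EKO replicate 3 fell within the WT range. Over the 6 libraries the ranges of miR-130b-3p and miR-301a-3p overlapped, but within every library miR-130b-3p was the higher of the pair.

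The other 2 members were at the edge of detection. miR-301b-3p had 0, 32 and 0 reads in EKO and 18, 86 and 16 in WT, which is 0.464, 2.14 and 0.373 CPM in the WT libraries and 0.799 CPM in EKO replicate 2. A count of 0 allows up to 0.0866 CPM in EKO replicate 1 and 0.0809 CPM in EKO replicate 3. These limits are 3 reads of the library total without the TMM factor, and cover counting error only. Its opposite arm, miR-301b-5p, was seen in every library at 43.8 to 66.4 CPM in EKO and 44.4 to 52.1 CPM in WT.
miR-130a-3p, a miRNA known from haematopoietic progenitors and endothelium, had no reads in any EKO library and 0, 42 and 7 reads in WT. The 42 reads of WT replicate 2 came from 4 distinct read sequences and the 7 of WT replicate 3 from 1. With 1 WT library also at 0, the genotypes overlapped. miR-130a-5p, the other arm of that hairpin, and miR-721, which has the family seed, had no reads listed in any library.

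**Figure D1:**
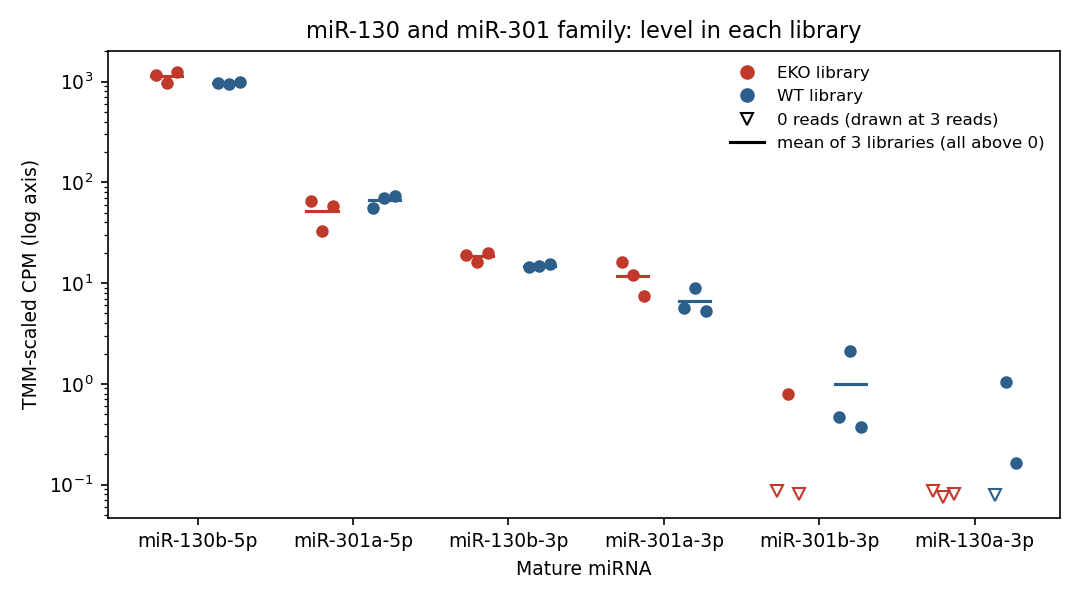
Level of each of the 6 members in each library, in TMM-scaled CPM on a log axis, with EKO in red, WT in blue and horizontal bars for the mean of 3 libraries. Open triangles are libraries with 0 reads, drawn at the level of 3 reads in CPM without the TMM factor. miR-130b-5p sits between 938 and 1249 CPM, miR-301a-5p between 32.6 and 73.7, and the 3p arms at 20.1 or below.

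The comparison of EKO with WT asked whether loss of ApoE alters these miRNAs. None of the 5 members tested passed (edgeR quasi-likelihood test, adjusted p threshold 0.05 over 575 miRNAs), and none had an unadjusted p under 0.05. The background was likewise 0.0% called at the adjusted threshold, with 8.35% of the 575 higher and 13.0% lower in EKO at an unadjusted p under 0.05. Calls over all miRNAs depended on the fit: DESeq2 called 16.0%, limma-voom 5.57%, edgeR on miRNAs averaging at least 10 CPM 23.5% and the same with a correction for GC content 16.3%. None of these fits called a member. By direction, 3 members had higher and 2 lower values in EKO, and their median log2 fold change was 0.23, beside -0.16 over all 575. miR-130a-3p was left untested by the low-count filter.

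The mean of miR-130b-5p was 1128 ± 146 CPM over the EKO and 963 ± 24.7 CPM over the WT libraries (SD, n = 3 each). Its log2 fold change was 0.23 ± 0.13 (SE), with a 95% interval from -0.06 to 0.52 and an adjusted p of 0.391 (edgeR).
Its opposite arm miR-130b-3p averaged 18.4 ± 2.07 and 14.9 ± 0.572 CPM, a log2 fold change of 0.30 ± 0.29 with an interval from -0.36 to 0.96 (adjusted p = 0.702, edgeR). It was the 1 member of the 5 tested whose genotypes did not overlap, as held in either direction for 31.3% of all miRNAs tested and in the higher direction for 12.5%. Without the TMM factor they did overlap. For both arms the interval of this fit includes 0. That of miR-130b-5p left out 0 in 5 of 17 alternatives, DESeq2 among them (0.07 to 0.55), none with an adjusted p under 0.05. That of miR-130b-3p included 0 in all 17 and reached a 2-fold rise in 10.

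For miR-301a-3p the EKO mean was 11.8 ± 4.40 CPM and the WT mean 6.63 ± 1.99 CPM (SD, n = 3 each). Its log2 fold change was 0.84 ± 0.47 (SE, interval -0.24 to 1.92, adjusted p = 0.397, edgeR). miR-301a-5p of the same hairpin averaged 52.2 ± 17.2 and 66.7 ± 9.29 CPM, a log2 fold change of -0.35 ± 0.28 (interval -1.01 to 0.30, adjusted p = 0.626, edgeR). The 2 arms of miR-301a thus had estimates on opposite sides of 0, neither beyond the spread between replicates.
For miR-301b-3p the estimate was -1.88 ± 2.22 (interval -7.00 to 3.25, adjusted p = 0.777, edgeR), too wide to bound a change. It was -8.26 without EKO replicate 2, the EKO library with reads, and -0.58 without WT replicate 2. Without EKO replicate 2 the interval ran from -15.80 to -0.71 (adjusted p = 0.249, edgeR), the 1 of 14 alternatives that left out 0.

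**Figure D2:**
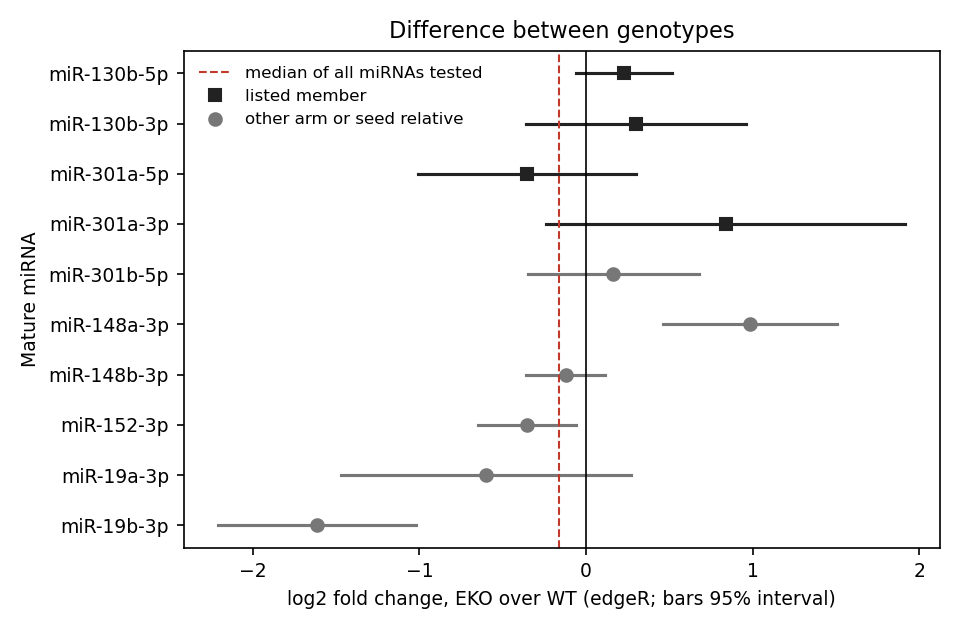
Log2 fold change of EKO over WT with its 95% interval (edgeR quasi-likelihood fit) for 4 members (squares), miR-301b-5p and the 5 seed relatives (circles), with a dashed line at the median of all 575 miRNAs tested. The 4 members' intervals all cross 0; miR-301b-3p is not drawn because its interval runs from -7.00 to 3.25.

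The 2 arms of miR-130b kept an almost fixed proportion. Reads of the 5p arm per read of the 3p arm were 61.7, 59.9 and 62.0 in EKO and 66.5, 63.8 and 63.4 in WT. On the log2 scale the SD of this ratio over the 6 libraries was 0.051, the smallest among 79 hairpins with reads on both arms in every library, whose median SD was 0.66. Inclusion needed only some reads on each arm, so the 79 were not matched for read depth. Counting error alone gives 0.058 for the read numbers of miR-130b, so its ratio varied no more than the counting of reads would make it. As log2, the ratio averaged 5.93 ± 0.027 over EKO and 6.01 ± 0.037 over WT libraries (SD, n = 3 each), a difference of -0.08 (two-sided exact permutation p = 0.1, the smallest that 3 against 3 allows; 0.2 adjusted over the 2 ratios tested). The groups did not overlap, as held in the lower direction for 19.0% of the 79 hairpins.

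The arms of miR-301a did not keep such a proportion. Reads of the 5p arm per read of the 3p arm were 4.02, 2.74 and 7.94 in EKO and 9.95, 7.88 and 13.9 in WT. EKO replicate 3 lay just above WT replicate 2, and the other EKO libraries lay below every WT library. As log2, the ratio averaged 2.15 ± 0.776 over EKO and 3.36 ± 0.409 over WT libraries (SD, n = 3 each), a difference of -1.21 that did not pass (exact permutation p = 0.2, adjusted 0.2). Its SD over the 6 libraries was 0.865, against 0.088 from counting error alone. Of the 79 hairpins 8 had a more negative difference, and 28 of them (35.4%) had genotypes that did not overlap in either direction.

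Both hairpins gave more 5p than 3p reads in all 6 libraries. By the mean log2 ratio, miR-130b ranked 12th of 79 for 5p excess and miR-301a 26th, where 43 hairpins had more 5p and 36 more 3p reads. Of the relatives with an overlapping seed, those among the 79 lay at the other end: miR-148a, miR-148b and miR-152 ranked 79th, 74th and 67th. miR-19a and miR-19b were not among the 79.

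**Figure D3:**
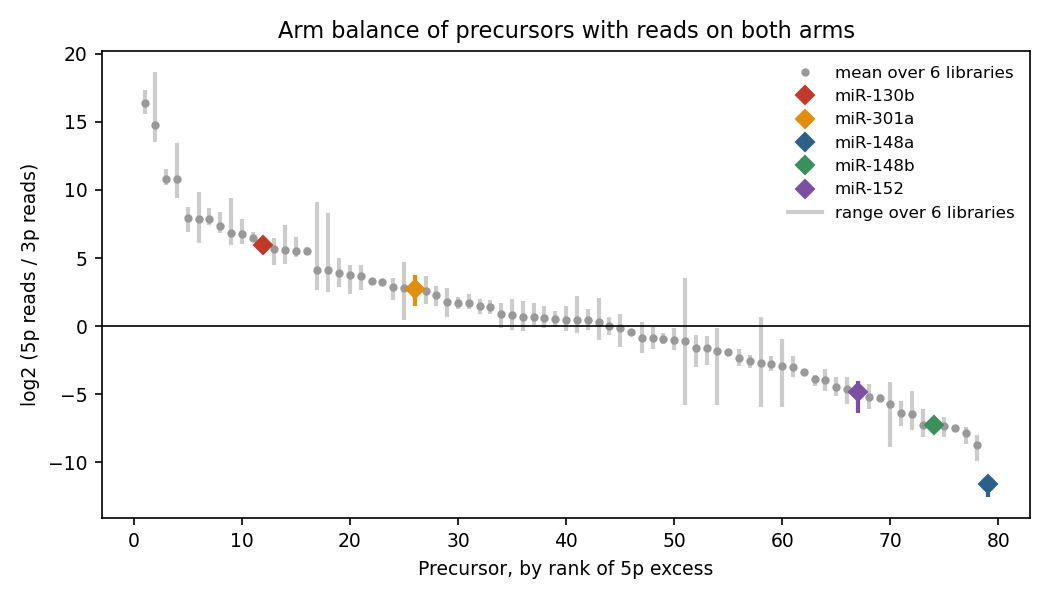
Log2 ratio of 5p to 3p reads for 79 hairpins, ordered by their mean over the 6 libraries; points are means and vertical bars the range over libraries. miR-130b (rank 12) has a bar shorter than its marker, miR-301a (rank 26) lies above 0 as well, and miR-148a, miR-148b and miR-152 lie below 0.

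The library pattern of a member was compared with that of every other miRNA averaging at least 10 CPM, as the root mean square difference of log2 levels, each centred on its mean over the 6 libraries. For miR-130b-5p the nearest was its own opposite arm, at 0.044, nearer than any of 248 non-members. The nearest non-members were let-7b-5p at 0.076, miR-23b-5p at 0.083 and miR-128-3p at 0.083, where the median non-member was at 0.377.
For miR-130b-3p the same 3 were nearest, miR-128-3p at 0.079, miR-23b-5p at 0.091 and let-7b-5p at 0.105. All 3 were higher in EKO replicates 1 and 3 than in the other 4 libraries. miR-301a-5p had other neighbours, miR-181a-5p at 0.128, miR-22-5p at 0.186 and miR-345-3p at 0.191, all lowest in EKO replicate 2. The distance between miR-301a-5p and miR-130b-5p was 0.393, and 73 of the 248 non-members were nearer. miR-301a-3p averaged under 10 CPM and was compared only with its own opposite arm, from which it differed by 0.759. All these distances rest on the same 6 libraries and are given as a description.

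**Figure D4:**
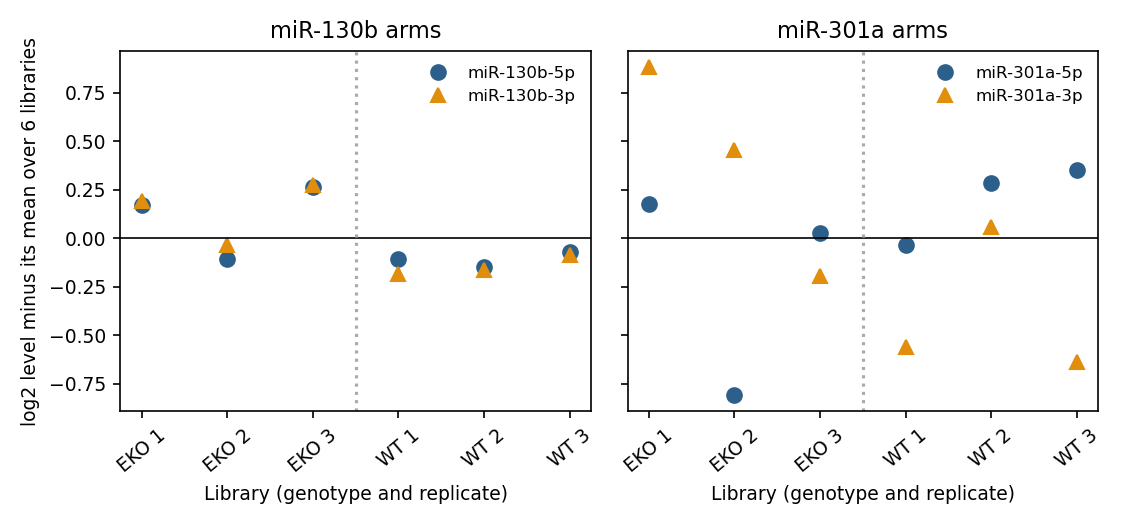
Log2 level of each arm minus its mean over the 6 libraries, for miR-130b (left) and miR-301a (right); circles are 5p arms, triangles 3p arms, and the dotted line separates EKO from WT. The miR-130b arms nearly coincide in every library (root mean square difference 0.044), and the miR-301a arms part in most (0.759), with the 3p arm highest in EKO replicate 1 and the 5p arm lowest in EKO replicate 2.

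Each table also gave the number of distinct read sequences per miRNA, which counts length and sequence variants. miR-130b-5p had 222, 222 and 238 distinct sequences in EKO and 267, 267 and 275 in WT. Every WT library thus held more variants of it than every EKO library, while the ranges of its read counts overlapped, at 37931 to 47400 in EKO and 37359 to 42359 in WT. miR-301a-5p had 45, 28 and 47 in EKO and 51, 52 and 50 in WT, again lower in EKO without overlap.
This direction was shared by 32.5% of the 575 miRNAs tested, while 1.22% had more variants in every EKO library. miR-130b-3p had 25 to 28 distinct sequences in EKO and 27 to 35 in WT, and miR-301a-3p 16 to 20 and 10 to 21, both with overlap. Reads per distinct sequence of miR-130b-5p were 171, 174 and 199 in EKO and 140, 141 and 154 in WT. Those of miR-130b-3p were 23.7, 25.8 and 27.3 in EKO and 20.8, 16.9 and 20.2 in WT. Both were higher in EKO without overlap, as for 20.9% of 406 miRNAs with reads in all libraries. For both arms of miR-301a the genotypes overlapped in this value. No read of any member was shared with another reference, so the counts of the near-identical miR-130a-3p and miR-130b-3p were not split between them.

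Relatives with an overlapping seed were taken from a list of 5. The capitals again mark bases 2 to 8, which hold GUGCA in each, a motif found there in 1.07% of the 1679 names.
miR-19b-3p: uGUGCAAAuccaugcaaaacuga
miR-148a-3p: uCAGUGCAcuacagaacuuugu
miR-152-3p: uCAGUGCAugacagaacuugg
Of these 5 relatives none passed (edgeR). At an unadjusted p under 0.05 in that fit, 1 was higher and 2 lower, beside 8.35% and 13.0% of the 575 miRNAs tested. The median log2 fold change of the 5 was -0.35, beside -0.16 over all miRNAs. miR-148a-3p, a regulator of the LDL receptor and ABCA1, stood at 146226, 111025 and 83961 CPM in EKO and 62088, 67018 and 43541 CPM in WT, more than the whole miR-130 and miR-301 family in each library. miR-19b-3p of the miR-17-92 polycistron lay between 17.3 and 28.7 CPM in the EKO and between 59.5 and 80.3 CPM in the WT libraries. Both separated the genotypes, miR-148a-3p higher in EKO and miR-19b-3p lower. Their log2 fold changes were 0.98 ± 0.23 and -1.61 ± 0.26 (SE, adjusted p = 0.0766 each, edgeR). Separation in these directions held for 12.5% and 18.8% of all miRNAs tested. miR-152-3p lay between 216 and 235 CPM in the EKO and between 270 and 315 CPM in the WT libraries, a log2 fold change of -0.35 ± 0.13 (adjusted p = 0.154, edgeR). miR-148b-3p averaged 1795 and 1952 CPM, and miR-19a-3p 38.6 and 58.5 CPM in EKO and WT, both with overlap.

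A second list held 12 other miRNAs described as targeting the transcripts of ABCA1 or the LDL receptor, among them miR-148a-3p. Of these, 10 were detected and 9 tested, none passed (edgeR), and 2 had higher and 7 lower values in EKO. Their median log2 fold change was -0.49, beside -0.16 over all 575 miRNAs tested, of which 239 were higher and 332 lower. At an unadjusted p under 0.05, 2 of the 9 were higher and 3 lower (edgeR), beside 8.35% and 13.0% of the 575. The smallest p-values after miR-148a-3p belonged to miR-27b-3p (15969 and 22452 CPM in EKO and WT), miR-26a-5p (5102 and 8099 CPM) and miR-20a-5p (327 and 661 CPM). Their adjusted p-values were 0.0786, 0.0965 and 0.105 (edgeR). Each was lower in EKO without overlap, as held for 18.8% of all miRNAs tested. miR-128-3p, also on this list, was the non-member with the library pattern nearest to miR-130b-3p. It was measured at 5551, 4631 and 5454 CPM in EKO and 4279, 4625 and 4138 CPM in WT. Its log2 fold change was 0.26 ± 0.11 (adjusted p = 0.213, edgeR). A value near the 0.30 of miR-130b-3p follows from that likeness of pattern and is no separate result.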

How the data were processed

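Small RNA of 3 EKO and 3 WT macrophage cultures was sequenced after column purification of total RNA and an NEB small RNA kit, per the labels' protocols. Per the file headers, the authors deposited, for each miRNA reference, the total read count, the number of distinct read sequences, an estimated count in which a read matching several references is divided, and a molecular-barcode count (another value, 0 in every row), so PCR copies were not removed. The submitters' processing notes name mm9 as the build; for the aligner and counter, a name is not given in the sources used here. Estimated counts were rounded to whole numbers, stem-loop references (73) were left out, and a missing reference was taken as 0.

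All 575 miRNAs passing filterByExpr were fitted with edgeR 4.0.16 (R 4.3.3, TMM, quasi-likelihood test on genotype, Benjamini-Hochberg adjustment), and fits were tested on simulated counts. SE is the log2 fold change divided by the square root of F. Arm ratios (0.5 reads added per arm) were compared by exact permutation over samples. Column purification can lose small RNA, and ligation and PCR favour some sequences. Named miRNAs are the members, the listed seed relatives and other arms, up to 4 of the cholesterol list by smallest p, and the 3 nearest non-members per member averaging at least 10 CPM. Members and lists were chosen with earlier results of these data known. Sequences and coordinates are RefSeq's, GRCm38.p6, by name.

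Alternatives were DESeq2 1.42.0, limma-voom (limma 3.58.1), other scalings and filters, an offset for GC content of the mature sequence (known for 88.0% of 251 miRNAs, the median used for the rest), total read counts, a block on replicate number, and each library left out in turn.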

Additional observations from a re-analysis of the deposited data

How the results depend on the processing

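No member passed an adjusted p of 0.05 or changed direction under any alternative that gave it a value. Over these, the log2 fold change ranged from 0.23 to 0.47 for miR-130b-3p, 0.15 to 0.39 for miR-130b-5p, 0.55 to 1.14 for miR-301a-3p, -0.54 to -0.08 for miR-301a-5p and -8.26 to -0.58 for miR-301b-3p. The smallest adjusted p was 0.053, for miR-130b-5p with the GC offset (edgeR; 0.0636 with DESeq2). The filter at a mean of 10 CPM left out miR-301a-3p and, like that at 10 reads in every library, miR-301b-3p. miR-130a-3p had a value only with no low-count filter (adjusted p = 0.408, edgeR). The log2 ratio of 3p to 5p reads was 0.06 to 0.09 higher in EKO for miR-130b and 0.86 to 1.63 for miR-301a, and the summed 3p arms (30.5 CPM in EKO, 22.9 in WT) moved by less than their SD.

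Over all miRNAs, edgeR called 0 higher and 0 lower in EKO, DESeq2 43 and 49, and limma-voom 9 and 23. By filter, edgeR called 24 and 28 when all miRNAs were kept, 21 and 22 when each library had to hold 10 reads, 27 and 32 at a mean of 10 CPM or more, and 25 and 16 when the GC offset was added to the latter. The replicate block gave 26 and 36; deviations of same-numbered libraries correlated at 0.18, -0.08 and 0.29, and EKO replicate 1 was closer to WT replicate 2 (0.26), so the numbers were not taken to pair the libraries. Leaving out each library gave 0 to 16 higher and 0 to 29 lower, all from the fit without EKO replicate 3. The median log2 fold change of all miRNAs was -0.16, and -0.08 with DESeq2 size factors, -0.35 with limma-voom and 0.03 with the GC offset; the cause of these differences was not tested.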
